A study of Arabidopsis thaliana with 6 samples.

Results

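Transcripts of 10 genes for chaperones and stress sensors of the endoplasmic reticulum (ER) were followed in root tips of Arabidopsis thaliana. They were 3 BIP genes, CNX1, CRT1, CRT3, HSP90-7, BZIP60, BZIP28 and IRE1A. They were taken by locus, with no cut-off on a measured value, but the set was put together with earlier results of these data known. The 10 loci are among 27655 in the deposited table and hold 17 of its 48359 transcript isoforms. Every locus was found, and isoforms were summed per locus. The samples were 3 of the sos2-2 mutant and 3 of wild type (WT). Seedlings 6 days old were held in liquid medium with 100 mM NaCl for 12 hours, in both genotypes, and the tissue is labelled root tip. No sample without salt is among the 6, so a genotype difference that exists without salt cannot be told apart from one on salt. The design text names gl1 beside sos2-2, and no source used here says if any of the 6 samples carries gl1. SOS2 is a kinase needed for sodium export from root cells. Nothing in the labels ties the 3 samples of a genotype to separate cultures. The p-values thus set a difference against the spread among these 6 samples only, and that spread may be technical.

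Proteins bound for the cell surface, the vacuole or secretion are folded in the ER. BIP proteins are HSP70-type chaperones of its lumen, HSP90-7 is the HSP90 of the same compartment, and calnexin and calreticulins are lectins that hold glycoproteins until they are folded. When unfolded proteins build up, IRE1 in the ER membrane splices the BZIP60 messenger and BZIP28 moves to the Golgi, where proteases release its transcription factor part. Both factors are known to induce chaperone genes, and this circuit is called the unfolded protein response.

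The chaperones and the sensors moved in opposite directions. In sos2-2, 6 of the 7 chaperone genes were lower, by 1.74-fold (CRT3) to 4.87-fold (CNX1), and the 3 sensor genes were higher, by 1.81-fold (IRE1A) to 13.8-fold (BZIP60). BIP3 was the remaining gene, with less than 1 TPM in every sample. TPM is transcript abundance per length, scaled to a total of 1000000 in each sample. The test was limma on log2(TPM + 1), with Benjamini-Hochberg adjustment over the 19527 loci with a mean of at least 1 TPM, and loci with an adjusted p under 0.05 were called. A log2 fold change here is the difference on the log2(TPM + 1) scale, sos2-2 minus WT. Of the 10 loci 9 passed the filter on low values, and all 9 were called, 3 higher and 6 lower. Of all tested loci 65.4% were called, 31.3% higher and 34.1% lower. Differences between the genotypes were thus common, and a call alone does not set these genes apart. The median absolute log2 fold change over all tested loci was 0.68, and each of the 9 was above it. CRT3 and IRE1A were above it by little, at ranks 8708 and 8284 of the 19527 loci by absolute log2 fold change. In bulk samples, fewer cells of a type and less RNA per cell cannot be told apart.

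**Figure D1:**
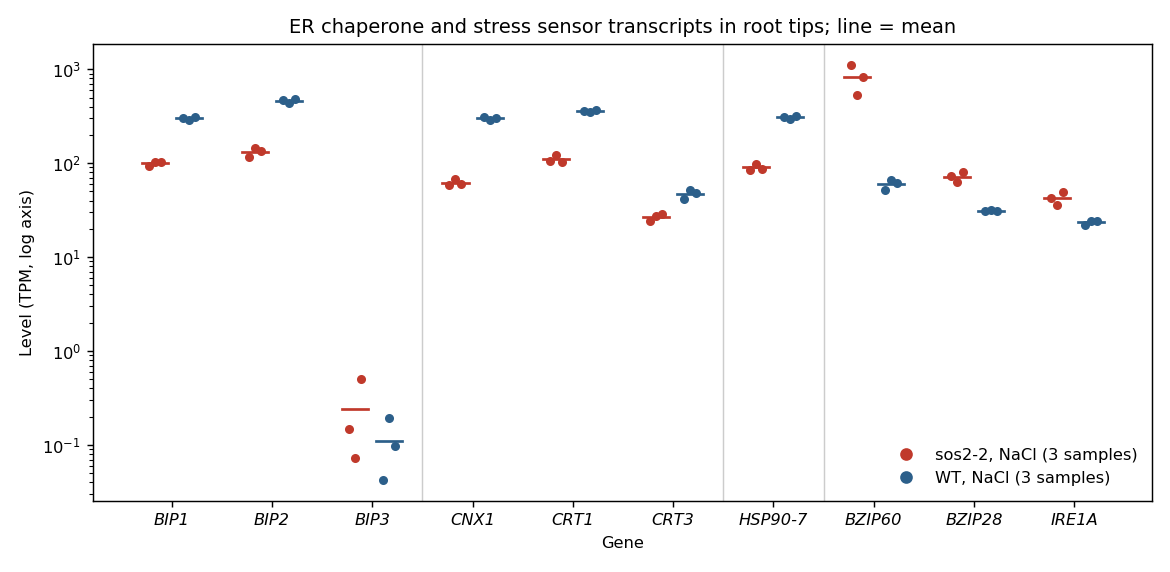
TPM of each gene on a log axis, with 1 point per sample and a line at the mean of 3 samples, sos2-2 left of WT. The 3 sos2-2 samples lie below the 3 WT samples for BIP1, BIP2, CNX1, CRT1, CRT3 and HSP90-7 and above them for BZIP60, BZIP28 and IRE1A, while the BIP3 samples are all under 1 TPM and overlap.

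BIP1 (AT5G28540, minus strand, chromosome 5, 10540123 to 10543558 in TAIR10.1) and BIP2 (AT5G42020, chromosome 5, 16807342 to 16810693) are near copies, while BIP3 (AT1G09080, chromosome 1, 2929217 to 2931850) has diverged. BIP3 is known as the member that is low in unstressed plants and strongly induced by agents that block protein folding. The last 60 bases of the coding sequences, stop codon included, show how far the 3 genes can be told apart by reads. They are given in the sense direction from the TAIR10.1 genome of RefSeq, with bases that differ from BIP1 in capitals. The BIP1 stretch is chr5:10540665-10540724, that of BIP2 chr5:16807697-16807756 and that of BIP3 chr1:2929268-2929327, each on the minus strand.
BIP1: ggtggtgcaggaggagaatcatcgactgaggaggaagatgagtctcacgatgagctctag
BIP2: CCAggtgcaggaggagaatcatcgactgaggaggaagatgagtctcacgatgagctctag
BIP3: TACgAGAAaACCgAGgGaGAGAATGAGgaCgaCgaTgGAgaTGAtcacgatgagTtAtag
BIP2 differed from BIP1 at 3 of these 60 bases and BIP3 at 32. Over the whole transcripts, 35.5% of the distinct 31-base words of BIP1 also occurred in BIP2, and 0% occurred in BIP3. The quantification had to divide reads from the shared parts between BIP1 and BIP2, so the single values of these genes are less certain than their sum.

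BIP1 stood at 92.8, 103 and 103 TPM in sos2-2 and at 301, 287 and 312 TPM in WT. The fall in sos2-2 was 3.01-fold, with a log2 fold change of -1.58 (SE 0.11, adjusted p = 2.81e-05 by limma). BIP2, the more abundant copy in every sample, had 117, 145 and 134 TPM in sos2-2 and 465, 435 and 486 TPM in WT. It was 3.50-fold lower (log2 fold change -1.80, SE 0.12, adjusted p = 2.81e-05). For both genes the highest sos2-2 sample was below the lowest WT sample. Groups did not overlap for 72.1% of all tested loci, with sos2-2 above WT for 35% and below it for 37.1%. Summed as 1 feature before the fit, BIP1 and BIP2 had a log2 fold change of -1.72. The ratio of BIP2 to BIP1 was 1.32 ± 0.08 in sos2-2 and 1.54 ± 0.02 in WT (SD, n = 3 each), and its ranges did not overlap. A two-sided exact permutation test of this ratio gave p = 0.1, the smallest that 3 against 3 samples allow.

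BIP3 had 0.150, 0.0726 and 0.507 TPM in sos2-2 and 0.0424, 0.192 and 0.0980 TPM in WT. Its groups overlapped. It did not pass the filter, and without the filter its adjusted p was 0.492 (limma), with a log2 fold change of 0.15. The BIP gene known for strong induction by folding inhibitors was thus near 0 in both genotypes, at a depth that TPM does not show.

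CNX1 (AT5G61790, chromosome 5, 24827063 to 24829900), the membrane-bound calnexin, fell the most of the 10 genes. It stood at 58.6, 67.2 and 59.3 TPM in sos2-2 and at 312, 288 and 302 TPM in WT. The level was 61.7 ± 4.8 TPM in sos2-2 and 301 ± 12 TPM in WT (SD, n = 3 each), a log2 fold change of -2.27 (SE 0.11, adjusted p = 8.64e-06 by limma). Only 2.63% of all tested loci had a log2 fold change at or below this one.

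CRT1 (AT1G56340, chromosome 1, 21089565 to 21092709), a soluble calreticulin that also binds calcium, had 106, 123 and 103 TPM in sos2-2 and 361, 349.9 and 369.7 TPM in WT. The fall in sos2-2 was 3.25-fold, with a log2 fold change of -1.70 (SE 0.11, adjusted p = 2.68e-05 by limma). CRT3 (AT1G08450, chromosome 1, 2667798 to 2671957), the plant-specific calreticulin known for retaining misfolded receptors, had 24.3, 27.7 and 29.1 TPM in sos2-2 and 41.6, 51.9 and 47.7 TPM in WT. Its fall was the smallest of the chaperones, 1.74-fold (log2 fold change -0.78, SE 0.13, adjusted p = 0.00126). The ratio of CRT1 to CRT3 was 4.12 ± 0.49 in sos2-2 and 7.72 ± 0.97 in WT, and that of CNX1 to CRT1 was 0.558 ± 0.015 in sos2-2 and 0.834 ± 0.025 in WT (SD, n = 3 each). Neither ratio overlapped between genotypes, and for each the two-sided exact permutation p was 0.1.

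HSP90-7 (AT4G24190, chromosome 4, 12551552 to 12556058), also called SHEPHERD, is known to be needed for CLAVATA signalling in meristems. It had 85.0, 98.7 and 87.1 TPM in sos2-2 and 309, 298 and 319.7 TPM in WT. The fall in sos2-2 was 3.42-fold, with a log2 fold change of -1.77 (SE 0.11, adjusted p = 2.29e-05 by limma). The 7 chaperone genes together summed to 484, 565 and 516 TPM in sos2-2 and to 1789, 1709 and 1837 TPM in WT. The spread of this sum within a genotype was small beside the gap between them.

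**Figure D2:**
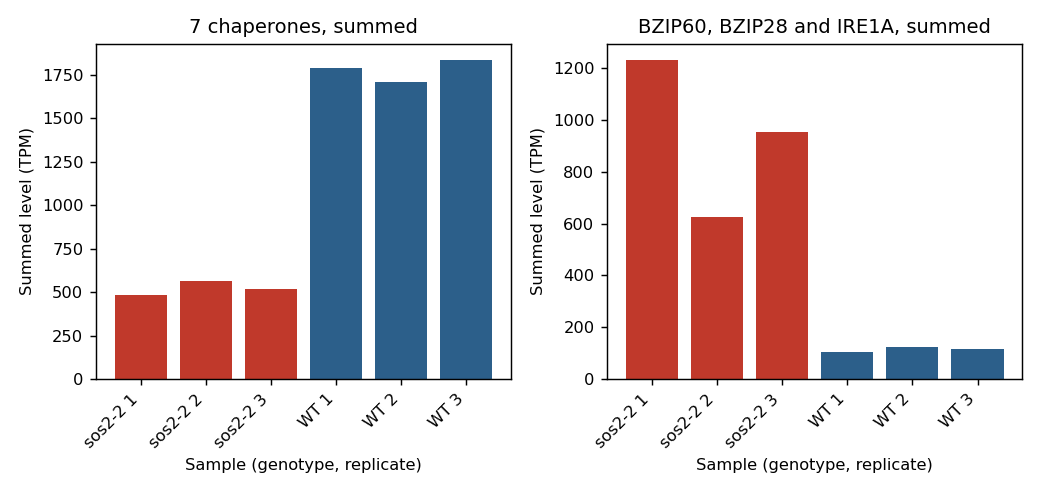
Summed TPM of the 7 chaperone genes (left) and of BZIP60, BZIP28 and IRE1A (right) in each sample, 1 bar per sample from 0, sos2-2 left of WT. The chaperone sum is 484 to 565 TPM in sos2-2 and 1709 to 1837 TPM in WT, and the sensor sum is 627 to 1233 TPM in sos2-2 and 105 to 122 TPM in WT.

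BZIP60 (AT1G42990, chromosome 1, 16135723 to 16137463, 2 exons) had by far the largest difference of the 10 genes. It stood at 1117, 529 and 824 TPM in sos2-2 and at 51.7, 66.2 and 61.0 TPM in WT. The mean was 823 ± 294 TPM in sos2-2 and 59.7 ± 7.3 TPM in WT (SD, n = 3 each), 13.8-fold higher (log2 fold change 3.71, SE 0.26, adjusted p = 3.56e-05 by limma). The sos2-2 samples were spread over more than the whole WT level, with replicate 1 high and replicate 2 low. The rise was 11.3-fold without sos2-2 replicate 1 and 16.3-fold without sos2-2 replicate 2. By absolute log2 fold change BZIP60 ranked 295 of the 19527 tested loci.

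The sequence at which IRE1 is known to act on the BZIP60 messenger bears on what this level can show. IRE1 cuts within paired loops of the form CNGNNG, and the stretch between the cuts is removed outside the nucleus. A search of the annotated transcript for such loops 23 bases apart found 1 pair, inside the coding part of exon 2, at chr1:16136258-16136320 on the minus strand of TAIR10.1. The sense sequence is shown with the 23 bases between the cuts in capitals (16136278 to 16136300), followed by the joined form.
BZIP60 unspliced: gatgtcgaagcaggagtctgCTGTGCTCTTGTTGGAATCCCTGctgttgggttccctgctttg
BZIP60 joined: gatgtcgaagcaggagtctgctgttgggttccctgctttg
The deposited table holds 1 isoform of this locus, AT1G42990.1. Its TPM is therefore a level of the messenger and does not say what share of it was spliced.

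BZIP28 (AT3G10800, plus strand, chromosome 3, 3379168 to 3381621) had 73.1, 62.7 and 79.8 TPM in sos2-2 and 30.9, 31.4 and 30.8 TPM in WT. The rise in sos2-2 was 2.32-fold, with a log2 fold change of 1.18 (SE 0.12, adjusted p = 0.000136 by limma). IRE1A (AT2G17520, plus strand, chromosome 2, 7617151 to 7621129), a kinase and ribonuclease in 1 protein, had 43.0, 35.6 and 49.1 TPM in sos2-2 and 22.1, 24.4 and 24.2 TPM in WT. It was 1.81-fold higher (log2 fold change 0.82, SE 0.14, adjusted p = 0.00151). For both genes the lowest sos2-2 sample was above the highest WT sample. The ratio of BZIP60 to BZIP28 was 15.3, 8.43 and 10.3 in sos2-2 and 1.68, 2.11 and 1.98 in WT. The ratio of BZIP28 to IRE1A was 1.70 ± 0.07 in sos2-2 and 1.32 ± 0.07 in WT (SD, n = 3 each). For each of these ratios the two-sided exact permutation p was 0.1.

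**Figure D3:**
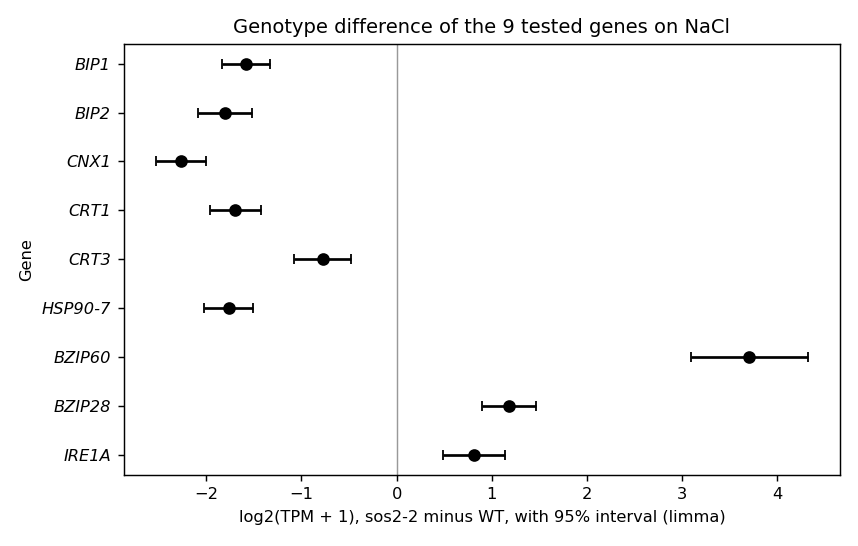
Difference of log2(TPM + 1), sos2-2 minus WT, of the 9 tested genes, with 95% intervals from limma over 3 samples per genotype. The 6 chaperones lie left of 0, with CNX1 at -2.27 and CRT3 at -0.78, and the 3 sensors right of 0, with BZIP60 at 3.71.

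The ratio of BZIP60 to BIP1 plus BIP2 differed accordingly. There were 5.33, 2.13 and 3.48 BZIP60 transcripts per BIP1 or BIP2 transcript in sos2-2, and 0.0676, 0.0918 and 0.0764 in WT. All 3 sos2-2 samples thus had more BZIP60 than BIP1 and BIP2 together, and no WT sample did. Per BIP1 or BIP2 transcript, CNX1 stood at 0.267 ± 0.015 in sos2-2 and at 0.395 ± 0.015 in WT (SD, n = 3 each). In all, 9 ratios between genes or isoforms were computed, chosen after the values were seen. Of these, 7 did not overlap between genotypes (two-sided exact permutation p = 0.1, Benjamini-Hochberg adjusted 0.129). Among single tested loci 72.1% did not overlap, and no such share was computed for ratios of other gene pairs. The ratio of BZIP60 to BIP1 plus BIP2 sets a gene called higher against genes called lower. Its separation follows from those levels and adds nothing to them.

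The order of levels changed with the genotype. In sos2-2 the order was BZIP60, BIP2, CRT1, BIP1, HSP90-7, BZIP28, CNX1, IRE1A, CRT3 and BIP3. There the sample ranges of BIP2 and CRT1 overlapped, as did those of BIP1 and HSP90-7 and those of BZIP28 and CNX1. In WT the order was BIP2, CRT1, HSP90-7, CNX1, BIP1, BZIP60, CRT3, BZIP28, IRE1A and BIP3. There HSP90-7, CNX1 and BIP1 lay within 297.6 to 319.7, 288 to 312 and 287 to 312 TPM and could not be ranked, and BZIP60 and CRT3 overlapped as well. Among tested loci, CNX1 was at the 82.8th percentile of level in sos2-2 and at the 97.1st in WT. BZIP60 was at the 99.4th percentile in sos2-2 and at the 83.7th in WT.

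HSP90-7 and CRT1 each had 2 tested isoforms, and all 4 were lower in sos2-2. Of the 17 isoforms of the 10 loci, 11 had a mean of at least 1 TPM. In a fit over all 27461 isoforms that passed, 3 of the 11 were higher and 8 lower in sos2-2, against a background of 50.8% called, 25.1% higher and 25.7% lower. The HSP90-7 isoforms have equal coding lengths of 2472 bases, but the boundaries of their coding exons differ. Isoform AT4G24190.2 had 50.8, 53.4 and 47.7 TPM in sos2-2 and 171, 178 and 199 TPM in WT. Isoform AT4G24190.1 had 34.2, 45.3 and 39.4 TPM in sos2-2 and 138, 120.0 and 121 TPM in WT. Their log2 fold changes were -1.83 and -1.65 (adjusted p = 4.57e-05 and 0.000128 by limma over isoforms), and the ratio of isoform 2 to isoform 1 overlapped between genotypes (two-sided exact permutation p = 0.3). The CRT1 isoforms differ in length, AT1G56340.1 with 12 exons and 1278 coding bases and AT1G56340.2 with 11 exons and 1275 coding bases. The first made up 79.0% ± 1.5 of the locus in sos2-2 and 82.8% ± 3.1 in WT (SD, n = 3 each), shares that overlapped. Their log2 fold changes were -1.76 and -1.37 (adjusted p = 4.53e-05 and 0.000778). Isoforms share most of their sequence, with 98.0% of the 31-base words of AT1G56340.2 also in AT1G56340.1, so this division is an estimate. The minor isoforms of BIP2 and CRT3 stood at 2.02 TPM at most. They were not tested, and CRT3 isoform AT1G08450.3 had 0, 1.04 and 0 TPM in sos2-2 and 0, 0 and 0.438 TPM in WT. BIP3 isoform AT1G09080.1 held 100% of the locus in sos2-2 replicates 1 and 3, while AT1G09080.2 held over 99% in sos2-2 replicate 2 and in the 3 WT samples. With the locus near 0, this division was not tested either.

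Promoters of the 10 genes were searched for the elements through which BZIP60 and BZIP28 are known to act. The window was the 250 bases before the annotated gene start in TAIR10.1. The motifs, on both strands, were the ER stress elements ERSE-I (CCAAT and CACG with any 10 bases between them) and ERSE-II (ATTGG and CCACG with any 1 base between them) and the core of the unfolded protein response element (TGACGTGG). In the 10 windows no match of one motif overlapped a match of another. ERSE-I was in the windows of 3 of the 10 genes and in 189 of 27443 windows of all protein-coding genes (0.689%). The core was in 2 of the 10 and in 342 of all windows (1.25%), and ERSE-II in 0 of the 10 and in 17 of all (0.0619%). The 3 genes with a match were BIP3, CRT1 and HSP90-7, and their stretches are shown in the direction of the gene, with the matches in capitals. That of BIP3 is chr1:2931921-2932030, that of CRT1 chr1:21092710-21092819 and that of HSP90-7 chr4:12556059-12556118, all on the minus strand, those of CRT1 and HSP90-7 ending at the base before the gene start.
BIP3: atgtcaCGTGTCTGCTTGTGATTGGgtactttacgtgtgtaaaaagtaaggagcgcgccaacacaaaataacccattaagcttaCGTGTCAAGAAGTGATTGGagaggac
CRT1: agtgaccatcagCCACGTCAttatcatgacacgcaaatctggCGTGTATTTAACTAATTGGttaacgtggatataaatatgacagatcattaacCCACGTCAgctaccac
HSP90-7: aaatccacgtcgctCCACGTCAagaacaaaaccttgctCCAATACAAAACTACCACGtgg
BIP3 held 2 ERSE-I matches, CRT1 held 1 with 2 of the core, and HSP90-7 held 1 with 1 of the core. A match is a description of the letters, and for the other 7 genes only this window was read. Of the 3 genes, BIP3 was near 0 in both genotypes, and CRT1 and HSP90-7 were lower in sos2-2.

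The wider ER folding system was examined through 64 other genes sorted by role, of which 63 were tested. In it 6 were higher in sos2-2, 44 lower and 13 not called. Over all tested loci 65.4% were called, 31.3% higher and 34.1% lower, and the counts by role below stand against these shares. The median log2 fold change of the 63 was -0.66, against -0.05 over all tested loci. All 9 tested chaperones and BIP partners were lower (median -1.38). Among them was AT5G07340, listed as CNX2 and annotated as a calreticulin family protein. It was at 2.94 ± 0.98 TPM in sos2-2 and 34.2 ± 1.9 TPM in WT, 11.7-fold lower (SD, n = 3 each; adjusted p = 1.61e-05 by limma). AT4G16660, annotated as an HSP70 family protein, was at 21.1 ± 2.1 TPM in sos2-2 and 80.8 ± 4.1 TPM in WT (adjusted p = 1.97e-05). CRT2, the close relative of CRT1 annotated as calreticulin 1b and chosen after its values were seen, was at 64.0 ± 9.5 TPM in sos2-2 and 239 ± 8 TPM in WT. Shared 31-base words were counted only among the 10 genes, so not between CNX1 and CNX2 or between CRT1 and CRT2.

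Of 12 genes of disulfide formation, which joins cysteines of secreted proteins, 9 were lower and 1 higher (median -0.71). PDIL2-1 was at 83.5 ± 8.5 TPM in sos2-2 and 288 ± 9 TPM in WT, and PDIL1-1 at 82.5 ± 16.4 TPM in sos2-2 and 350.2 ± 22.9 TPM in WT (SD, n = 3 each). The 1 that rose was PDIL1-5, at 36.0 ± 2.8 TPM in sos2-2 and 16.2 ± 1.4 TPM in WT (adjusted p = 0.000166 by limma). Of 11 genes that add and trim N-glycans, 10 were lower and 0 higher (median -0.86). The smallest p-values were those of OST3/6, at 35.9 ± 3.9 TPM in sos2-2 and 163 ± 1 TPM in WT, and DAD2, at 21.0 ± 0.7 TPM in sos2-2 and 50.4 ± 1.9 TPM in WT. DAD1 fell by more than DAD2, at 51.1 ± 11.4 TPM in sos2-2 and 161 ± 8 TPM in WT (log2 fold changes -1.65 for DAD1 and -1.23 for DAD2). All 8 genes of protein translocation into the ER were lower (median -1.06). A Sec61 gamma gene, AT5G50460, was at 97.4 ± 8.9 TPM in sos2-2 and 248 ± 4 TPM in WT. A beta gene of low level, AT3G60540, was at 0.178 ± 0.223 TPM in sos2-2 and 8.04 ± 1.69 TPM in WT. The most abundant listed beta gene, AT2G45070, was at 270 ± 19 TPM in sos2-2 and 568 ± 28 TPM in WT.

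ER-associated degradation, which sends misfolded proteins to the proteasome, had 8 of 13 genes not called, 4 lower and 1 higher (median -0.27). HRD1B, a ubiquitin ligase of this route, was at 11.5 ± 1.9 TPM in sos2-2 and 29.6 ± 4.6 TPM in WT, and DER1 at 24.7 ± 3.8 TPM in sos2-2 and 53.7 ± 7.1 TPM in WT (SD, n = 3 each). MNS5, a mannosidase, was the 1 higher, at 22.9 ± 2.0 TPM in sos2-2 and 12.7 ± 0.5 TPM in WT. Its partners in recognition, SEL1A (33.6 ± 1.3 TPM in sos2-2 and 36.1 ± 3.1 TPM in WT) and OS9 (32.5 ± 3.0 TPM in sos2-2 and 34.0 ± 2.7 TPM in WT), differed by less than the spread between replicates.

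Other sensors and regulators divided, with 4 higher, 4 lower and 2 not called of 10 tested (median -0.40). The membrane-bound NAC factor NAC062 was at 174 ± 31 TPM in sos2-2 and 46.4 ± 2.3 TPM in WT, and BZIP17, a relative of BZIP28, at 32.7 ± 2.0 TPM in sos2-2 and 17.5 ± 1.8 TPM in WT (SD, n = 3 each; adjusted p = 5.63e-05 and 0.000569 by limma). IRE1B and NAC103, a factor known to act after BZIP60, were the other 2 higher genes. IRE1B was at 21.6 ± 1.3 TPM in sos2-2 and 15.3 ± 0.1 TPM in WT, and NAC103 at 2.36 ± 0.29 TPM in sos2-2 and 0.537 ± 0.103 TPM in WT. The 4 lower genes included another membrane-bound NAC factor, NAC089, at 2.31 ± 1.18 TPM in sos2-2 and 10.04 ± 2.56 TPM in WT, 4.35-fold lower (SD, n = 3 each; adjusted p = 0.0012 by limma). BI-1, an ER membrane protein known to restrain cell death, was at 107 ± 5 TPM in sos2-2 and 160.2 ± 22.96 TPM in WT. BAG7, a BIP-binding cochaperone, was at 149 ± 10 TPM in sos2-2 and 198 ± 5 TPM in WT. The last of the 4 was S2P, a protease known to act on BZIP28 in the Golgi, at 2.83 ± 0.20 TPM in sos2-2 and 4.05 ± 0.23 TPM in WT (adjusted p = 0.0378 by limma). S1P, another protease of this list, was at 6.94 ± 2.26 TPM in sos2-2 and 9.39 ± 1.06 TPM in WT and was not called (adjusted p = 0.128 by limma).

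**Figure D4:**
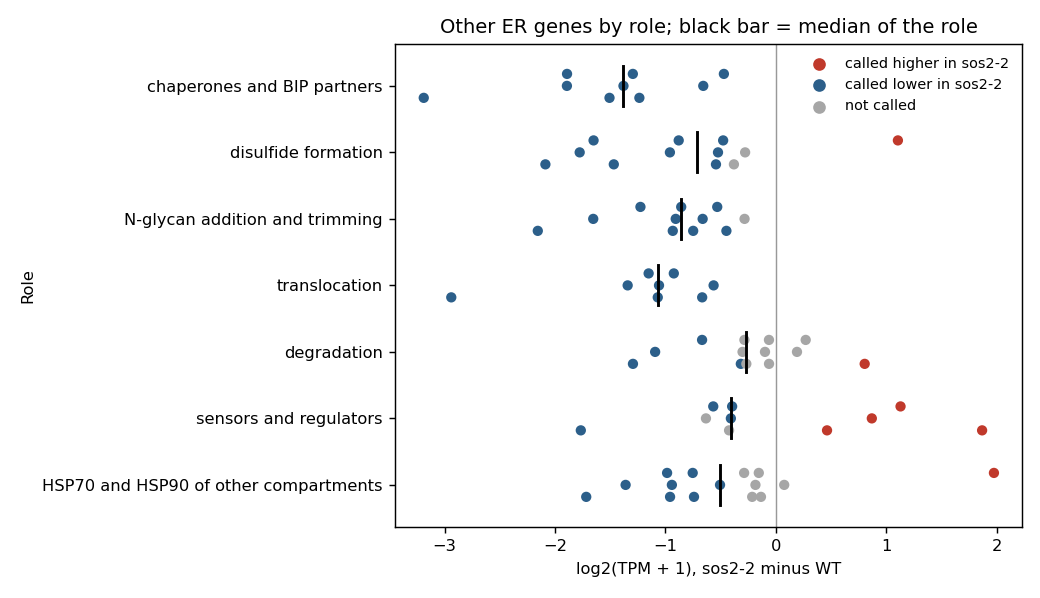
Difference of log2(TPM + 1), sos2-2 minus WT, with 1 point per tested gene in 6 roles of the ER folding system and in the HSP70 and HSP90 genes of other compartments, coloured by call, with a black bar at the median of each role. The medians run from -1.38 for chaperones and BIP partners to -0.27 for degradation, and the degradation genes not called lie close to 0.

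The HSP70 and HSP90 relatives in the cytosol, mitochondria and chloroplasts gave a comparison outside the ER. Of 15 genes 8 were lower, 1 higher and 6 not called, with a median log2 fold change of -0.51. Over all tested loci 65.4% were called, 31.3% higher and 34.1% lower, with a median log2 fold change of -0.05. The total called thus does not set the 15 apart. By direction, the share lower was above that of all loci and the share higher below it. The summed level of the 15 was 3019 to 3086 TPM in sos2-2 and 3187 to 3514 TPM in WT. The cytosolic HSP70-1 alone gave 1521 ± 54 TPM in sos2-2 and 1693 ± 33 TPM in WT (SD, n = 3 each) and was not called. The 1 that rose was the mitochondrial mtHsc70-1 (AT4G37910), at 632 ± 137 TPM in sos2-2 and 160 ± 31 TPM in WT (SD, n = 3 each; adjusted p = 0.000173 by limma). Without it the other 14 summed to 2255 to 2596 TPM in sos2-2 and 3063 to 3340.0 TPM in WT. Without HSP70-1 as well, the remaining 13 summed to 757 to 1013 TPM in sos2-2 and 1409 to 1631 TPM in WT. The genes to leave out were chosen after their values were seen. HSP70-2, a cytosolic form, was at 4.92 ± 0.35 TPM in sos2-2 and 14.2 ± 1.0 TPM in WT. Whether the ER genes differ from these as groups was not tested.

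Marker lists of the root tip were read in the same samples, and their counts stand against the 31.3% higher and 34.1% lower of all tested loci. Root meristem markers had 0 of 5 genes called by limma and 0 at an unadjusted p under 0.05, at summed levels of 61.9 to 107 TPM in sos2-2 and 61.0 to 74.4 TPM in WT. All 6 markers of dividing cells were lower, with sums of 30.1 to 47.1 TPM in sos2-2 and 147 to 212 TPM in WT. Of 6 root hair markers 5 were lower and 1 higher (386 to 522 TPM in sos2-2 and 1668 to 2119.9 TPM in WT), and of 6 endodermis markers 5 were lower and 1 higher (124 to 333 TPM in sos2-2 and 655 to 862 TPM in WT). Of 6 xylem markers 4 were lower and 1 higher (132 to 162 TPM in sos2-2 and 177 to 212 TPM in WT). Of 4 root cap markers 2 were higher and 1 lower (42.4 to 44.8 TPM in sos2-2 and 32.0 to 37.0 TPM in WT). Green tissue markers summed to 62.5 to 74.5 TPM in sos2-2 and 74.6 to 93.8 TPM in WT, with 4 of 5 tested lower. ER bodies, stores of beta-glucosidase that form from the ER in roots, had 3 of 7 genes lower, at sums of 1282 to 2964 TPM in sos2-2 and 4805 to 7884 TPM in WT. No marker was listed at 0 in all samples. The part of these cell types and structures in the levels of the chaperones and sensors was not tested.

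The sos2-2 sample that lay nearest to the WT mean was replicate 2 for 8 of the 9 called genes and replicate 3 for the other one, CRT3. For BIP1 sos2-2 replicates 2 and 3 were nearly tied, at 102.99 and 102.96 TPM. Over all 12780 called loci replicate 2 was nearest for 61.9%. Without sos2-2 replicate 2 the calls of the 10 genes were again 3 higher and 6 lower. SOS2 itself had 22.0, 10.2 and 14.3 TPM in sos2-2 and 4.98, 5.81 and 5.44 TPM in WT. The labels do not describe the lesion of the allele, so this level does not check them.

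Genes with the profile most like that of CNX1 over the 6 samples were sought among 8374 tested loci with a symbol of their own. The measure was the root mean square distance between log2(TPM + 1) profiles, each centred on its mean. Nearest to CNX1 were COBL9 (0.08), ACP2 (0.09) and RAB11c (0.09). COBL9, a gene of root hair growth, was at 10.2 ± 1.9 TPM in sos2-2 and 52.3 ± 2.4 TPM in WT (SD, n = 3 each). Nearest to BZIP60 were ANAC087 (0.10), CBP60G (0.12) and MEA (0.13). ANAC087, a NAC factor, was at 489 ± 138 TPM in sos2-2 and 35.2 ± 4.7 TPM in WT, and CBP60G, a regulator of defence, at 29.7 ± 11.8 TPM in sos2-2 and 1.10 ± 0.25 TPM in WT. MEA was at 15.1 ± 5.4 TPM in sos2-2 and 0.183 ± 0.0299 TPM in WT. The added 1 TPM compresses differences from such low WT levels. In ratios of mean TPM, CBP60G and MEA differed by more than BZIP60. All 6 samples fall into 2 genotypes, so likeness here is mostly a like difference between them on the log2(TPM + 1) scale.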

How the data were processed

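RNA from 6 root tip samples was measured by RNA-seq. The authors deposited TPM per transcript isoform, a unit recognised by column sums of 1000000. The tools in the submitters' processing notes are kallisto 0.46.2 and sleuth 0.30.0, with TAIR10 as the build. Annotation release, filters and strandedness were not given in the sources read for this work. Depth cannot be had from TPM, so no counting interval is printed. TPM values are shares, so large changes in abundant transcripts shift all others. Between 18812 and 19141 loci reached 1 TPM per sample, and 0 columns of other samples were present.

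Isoforms were summed per locus, and limma 3.58.1 (R 4.3.3) was fitted to log2(TPM + 1) with genotype only, mean-variance trend and robust moderation. A locus needed a mean of 1 TPM. The fit was tested on simulated data. Intervals are 95%, values after ± are SD. Fold values are ratios of mean TPM. Names, coordinates and sequences come from RefSeq's TAIR10.1, which holds 99.2% of the loci. Figures used Python 3.11.15. The members and lists were chosen with earlier results of these data known. From each role the 2 called genes with the smallest p were named, and others named were chosen after their values were seen. Alternatives changed filter, pseudocount, scaling, moderation, the replicate block or the samples.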

Additional observations from a re-analysis of the deposited data

How the results depend on the processing

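All 14 alternative settings kept the direction and the call of each of the 9 tested genes and each of their 11 tested isoforms. The settings were no filter or a mean of 5 TPM, a pseudocount of 0.1 or 5, TMM-type scaling, quantile normalization, plain moderation, the replicate block, and each sample left out. Over them the log2 fold change ranged from -2.33 to -2.20 for CNX1, from 3.45 to 3.99 for BZIP60, from -0.89 to -0.70 for CRT3 and from 0.70 to 0.94 for IRE1A, and the largest adjusted p of any of the 9 genes was 0.00924 (limma, IRE1A). The other ER genes gave 5 to 9 higher and 39 to 46 lower. Over all loci 5267 to 6488 were higher and 5382 to 6876 lower. With the replicate block 6011 loci were higher and 6536 lower. Replicate numbers are not stated to mark a shared batch, so the main fit had no block. Deviations of same-numbered samples correlated across genes at 0.18, 0.05 and 0.06. The other correlations between the genotypes' samples were -0.20 to 0.18. Deviations from a mean of 3 samples are tied together, so these correlations do not decide whether the samples pair. Depth is unknown, and TPM limits what can be said of BIP3.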
